A study of Mus musculus with 2 samples.

Results

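The genes described here were 3 ligands (Jag1, Dll1 and Dll4), 4 receptors (Notch1 to Notch4) and 2 transcriptional targets (Hes1 and Hey1) of the Notch pathway. They were chosen by gene symbol among 28006 features, and all 9 had UMIs (unique molecular identifiers, each standing for 1 captured transcript) in cells of both mice. Notch signaling passes between touching cells: a membrane-bound ligand of the Jagged or Delta-like family on one cell pulls on a Notch receptor of its neighbour, the receptor is cleaved by ADAM metalloproteases and then by gamma-secretase, and its intracellular domain enters the nucleus. There it joins the DNA-binding protein Rbpj and a Mastermind protein and turns on repressors of the Hes and Hey families. The pathway is known for setting arterial identity in the vessel wall, for holding skeletal progenitors back from osteoblast differentiation and for steering lymphoid and marginal zone B cell fates.

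Femoral cells of 2 mice were profiled at postnatal day 28. Both carried Cxcl12(GFP/+), Cxcl12-iCreER and R26R(tdTomato/+) and had received tamoxifen at day 21. The GFP reports the Cxcl12 locus, whereas the Cre comes from a Cxcl12 BAC transgene and turns on tdTomato permanently in cells that expressed it during tamoxifen exposure. All cells had passed a FACS gate for a reporter, so the endothelial and blood cells were only those that entered this gate, and there was no mouse of another genotype or treatment. The sample labels name GFP+ cells in one field and tdTomato+ cells in another. The paper that reported these mice states that the gate was on a GFP-high fraction.

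The libraries held 2750 cells (mouse 1) and 4582 cells (mouse 2) that passed the limits of 1000 detected genes and 15% mitochondrial UMIs, at a median of 12966.5 and 12190 UMIs per cell. They shared 7 cell barcodes. Cells were clustered without the Notch genes and the reporters, and the clusters were named from marker genes. Stromal cells numbered 1817 and 3652, comprising reticular-like, preosteoblast-like, osteoblast-like and periosteal-like cells. Endothelial-like cells numbered 151 and 138, and blood cells (myeloid, lymphoid and erythroid) 710 and 697. The 8 endothelial markers summed to 5265 and 4969 UMIs per 1000000 UMIs (CPM) in the endothelial class, against 17.1 and 18.2 in stromal and 39.7 and 56.6 in blood cells, and none of the 8 was at 0 in it. Each class in each mouse was 1 sum of UMIs, so every comparison below rested on 2 mice. The classes were built from other genes of the same cells, and the p-values cover the spread between these mice only.

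Dll1, Dll4 and Notch4 stood at a few CPM outside endothelial cells, and 250 bases upstream of an annotated start of each are printed because these 3 genes shared that pattern. They come from RefSeq for GRCm38.p6. The Dll1 window is chr17:15376933-15377182 on the minus strand, the Dll4 window chr2:119325534-119325783 on the plus strand and the Notch4 window chr17:34564045-34564294 on the plus strand. Capitals mark matches on either strand to AGGAAG, a core that ETS family factors recognise, or to ACAAT, a core recognised by SOX factors.
Dll1: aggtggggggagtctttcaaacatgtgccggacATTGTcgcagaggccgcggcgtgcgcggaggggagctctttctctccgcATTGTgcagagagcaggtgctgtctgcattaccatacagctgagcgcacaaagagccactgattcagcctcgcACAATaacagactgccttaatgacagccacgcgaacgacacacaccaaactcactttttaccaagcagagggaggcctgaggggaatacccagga
Dll4: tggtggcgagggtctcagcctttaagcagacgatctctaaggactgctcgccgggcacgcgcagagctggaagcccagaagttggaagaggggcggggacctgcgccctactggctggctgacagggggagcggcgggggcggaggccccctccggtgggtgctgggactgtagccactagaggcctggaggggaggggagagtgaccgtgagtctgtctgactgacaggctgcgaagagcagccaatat
Notch4: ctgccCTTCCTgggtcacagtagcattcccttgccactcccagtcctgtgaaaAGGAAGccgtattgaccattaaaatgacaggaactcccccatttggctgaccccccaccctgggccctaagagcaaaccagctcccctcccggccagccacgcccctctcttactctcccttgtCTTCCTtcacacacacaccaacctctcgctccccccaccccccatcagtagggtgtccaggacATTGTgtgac
The Notch4 window held 3 matches to AGGAAG, beginning 245, 197 and 73 bases before the start, and 1 match to ACAAT at 10 bases, none of them overlapping. The Dll4 window held neither, and the Dll1 window held 3 matches to ACAAT, at 217, 168 and 95 bases, and none to AGGAAG. The other Dll1 window of the table lies inside the annotated gene and is not printed. It held 1 match to AGGAAG, at 14 bases, and none to ACAAT. Among 32851 promoter windows of this length, 29.5% held AGGAAG and 27.7% held ACAAT. The core TGGGAA, which Rbpj recognises, was in 21.6% of those windows and in none of the 8 windows found for 7 of the 9 genes. The targets Hes1 and Hey1 had no window, so only ligands and receptors were searched. A match is a run of letters and not a bound site.

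In GENCODE M21 on GRCm38 (mm10), Jag1 lies at chr2:137081456-137116644 (minus strand), Dll1 at chr17:15367354-15376872 (minus), Dll4 at chr2:119325784-119335962 (plus), Notch1 at chr2:26457903-26516663 (minus), Notch2 at chr3:98013527-98150361 (plus), Notch3 at chr17:32120820-32166852 (minus), Notch4 at chr17:34564268-34588503 (plus), Hes1 at chr16:30064384-30067796 (plus) and Hey1 at chr3:8663359-8667256 (minus). Dll1 overlaps A930024N18Rik and Notch3 overlaps Gm17276, each on the opposite strand.

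**Figure D1:**
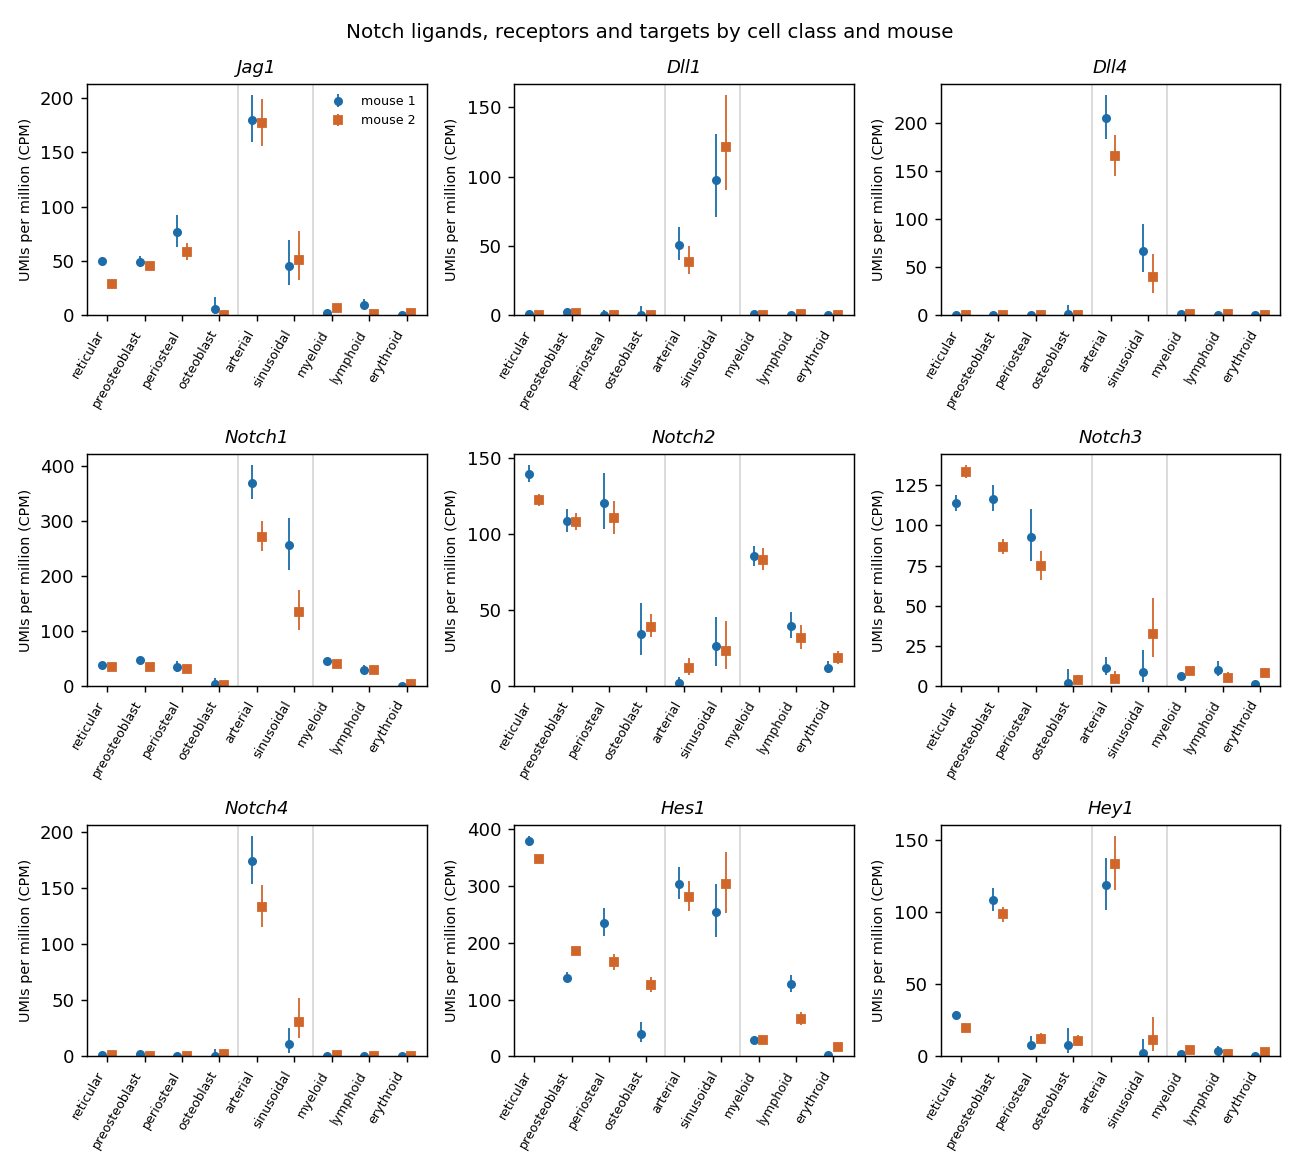
Level of each gene in 9 cell classes (x axis) in CPM (y axis, linear from 0). Points are the summed UMIs of a class in mouse 1 (circles) and mouse 2 (squares), bars are exact 95% Poisson intervals that cover counting error only, and grey lines separate stromal, endothelial and blood classes. Dll1, Dll4 and Notch4 stand well above 0 only in the arterial and sinusoidal columns, Notch2 is highest in the reticular column, Notch3 is high in the reticular, preosteoblast and periosteal columns, and Hey1 peaks in the arterial and preosteoblast columns.

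Endothelial cells carried all 3 ligands at higher levels than stromal cells did. Jag1, the Jagged ligand known from bile duct and ear development, measured 148 and 149 CPM in endothelial cells, 50.25 and 34.0 in stromal cells and 3.13 and 4.35 in blood cells in mouse 1 and mouse 2. Endothelial levels lay above stromal levels and stromal above blood, with no overlap. Endothelial against stromal cells gave 1.74 on the log2 scale (SE 0.21, edgeR quasi-likelihood test, Benjamini-Hochberg adjusted p = 0.00088).
Dll4, the Delta-like ligand of sprouting and arterial endothelium, measured 173 and 138 CPM in endothelial cells but 0.156 and 0.155 in stromal cells, which were 4 and 8 UMIs among 1817 and 3652 cells. This was a difference of 9.80 on the log2 scale (SE 0.21, edgeR adjusted p = 1.8e-06). Dll1, a Delta-like ligand used in somite formation and in splenic B cell fate, measured 61.85 and 57.0 CPM against 1.13 and 0.680, a log2 fold change of 6.01 (SE 0.29, edgeR adjusted p = 2.2e-05). For both Delta-like ligands, every endothelial value lay far above every stromal and blood value.

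When each cell was thinned to 2000 UMIs, Dll4 had a UMI in 34.4% (95% Wilson interval 27.3 to 42.3) and 21.7% (15.7 to 29.3) of endothelial cells. In blood cells, which served as a background class at median depths of 12959 and 10642 UMIs against 10726 and 11868.5, it had a UMI in none of the thinned cells, and the unthinned shares were 0.282% and 0.861% against 71.5% and 67.4%. Jag1 was seen in 9.27% (8.02 to 10.7) and 6.60% (5.84 to 7.46) of thinned stromal cells, against 0.423% and 0.432% of blood cells. The Jag1 share in stromal cells therefore lay above that of the background class in both mice. Barcodes with 1 to 100 UMIs, which hold free RNA, had 49.1 and 35.2 CPM of Jag1, 2.91 and 3.32 of Dll1 and 7.38 and 1.77 of Dll4. The few Dll1 and Dll4 UMIs of stromal cells stood below those levels. Jag1 in stromal cells, at 50.25 and 34.0 CPM, was near the free RNA level.

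The receptors divided between the compartments. Notch1 measured 343 and 242 CPM in endothelial cells, 39.7 and 32.3 in stromal cells and 32.2 and 24.9 in blood cells. It was higher in endothelial than in stromal cells in both mice, by 2.93 on the log2 scale (SE 0.20, edgeR adjusted p = 7.4e-05). The lowest stromal value, 32.31 CPM, lay just above the highest blood value, 32.23, and the difference of 0.01 (SE 0.19, edgeR adjusted p = 0.96) did not pass. Free RNA held 40 and 27.2 CPM of Notch1, near the stromal values.
Notch4, a receptor with a known endothelial bias, measured 135.5 and 110.5 CPM in endothelial cells, 1.25 and 1.19 in stromal cells and 0.447 and 0.699 in blood cells. Against stromal cells it differed by 6.57 on the log2 scale (SE 0.18, edgeR adjusted p = 3.4e-06), and the stromal values were below the free RNA values of 6.99 and 4.64 CPM.

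Notch2 and Notch3 ran the other way. Notch2, mutated in a human disorder of bone loss, measured 7.67 and 14.4 CPM in endothelial cells, 128 and 113 in stromal cells and 60 and 52.45 in blood cells. Stromal levels were the highest, blood levels intermediate and endothelial levels the lowest, without overlap. Endothelial against stromal cells gave a log2 fold change of -3.53 (SE 0.23, edgeR adjusted p = 6.6e-05). Free RNA held 71.65 and 78.1 CPM of Notch2, so endothelial cells stood below it.
Notch3, the receptor of vascular mural cells, measured 10.7 and 10.8 CPM in endothelial cells, 111 and 109 in stromal cells and 5.43 and 8.24 in blood cells. In mouse 1 the 21 endothelial UMIs came from 3 of 151 cells, in mouse 2 from 13 of 138, and the mean endothelial level fell from 10.76 to 4.68 CPM when likely doublets were removed. Endothelial against stromal cells differed by -3.44 on the log2 scale (SE 0.24, edgeR adjusted p = 8.6e-05).

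The targets differed from each other. Hes1, a basic helix-loop-helix repressor, measured 292 and 286 CPM in endothelial cells, 297 and 277 in stromal cells and 37.8 and 31.1 in blood cells. Endothelial and stromal ranges overlapped, and their log2 fold change of -0.08 (SE 0.11) did not pass the test (edgeR adjusted p = 0.6). Free RNA held 164 and 152 CPM of Hes1, below the endothelial and stromal values and above the blood values. Hey1, a repressor of the related Hey family, measured 91.0 and 106 CPM in endothelial cells, 49.5 and 40.65 in stromal cells and 1.86 and 3.65 in blood cells. It was higher in endothelial than stromal cells by 1.05 on the log2 scale (SE 0.23, edgeR adjusted p = 0.011).

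Of the 9 genes, 6 were higher and 2 lower in endothelial than in stromal cells and 1 did not pass the test, in a comparison where 44.6% of 14150 genes passed, 21.7% higher and 22.9% lower. The median log2 fold change was 1.74 over the 9 genes and -0.11 over all genes tested.
Against blood, 7 genes were higher in endothelial cells, Notch2 was lower (log2 fold change -2.76, SE 0.24, edgeR adjusted p = 0.00011) and Notch3 did not pass the test, where 58.7% of genes passed, 27.6% higher and 31.1% lower. The highest fold changes were those of Notch4 at 7.33 (SE 0.22) and Dll4 at 7.12 (SE 0.19) on the log2 scale, with edgeR adjusted p of 5.5e-06 and 5.3e-06.
Between stromal and blood cells, where 73.6% of genes passed, 38.3% higher and 35.2% lower, Jag1, Notch2, Notch3, Hes1 and Hey1 were higher in stromal cells, by 3.17 (SE 0.25), 0.78 (SE 0.16), 3.69 (SE 0.20), 2.74 (SE 0.12) and 3.71 (SE 0.28) on the log2 scale. Dll4 was lower in stromal than blood cells (log2 fold change -2.69, SE 0.34, edgeR adjusted p = 0.00042), on 4 and 8 stromal and 12 and 10 blood UMIs, and this call was lost when likely doublets were removed (-1.47, edgeR adjusted p = 0.23). These 3 comparisons share their groups. With library totals in place of TMM (trimmed mean of M-values) factors the median log2 fold change of all genes moved from -0.10 to 0.31 for endothelial against blood cells and from 0.07 to 0.39 for stromal against blood cells. The genes called higher and lower then numbered 5326 and 2972 instead of 3912 and 4395 in the first, and 6613 and 3848 instead of 5422 and 4986 in the second. No member called in either comparison turned direction.

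**Figure D2:**
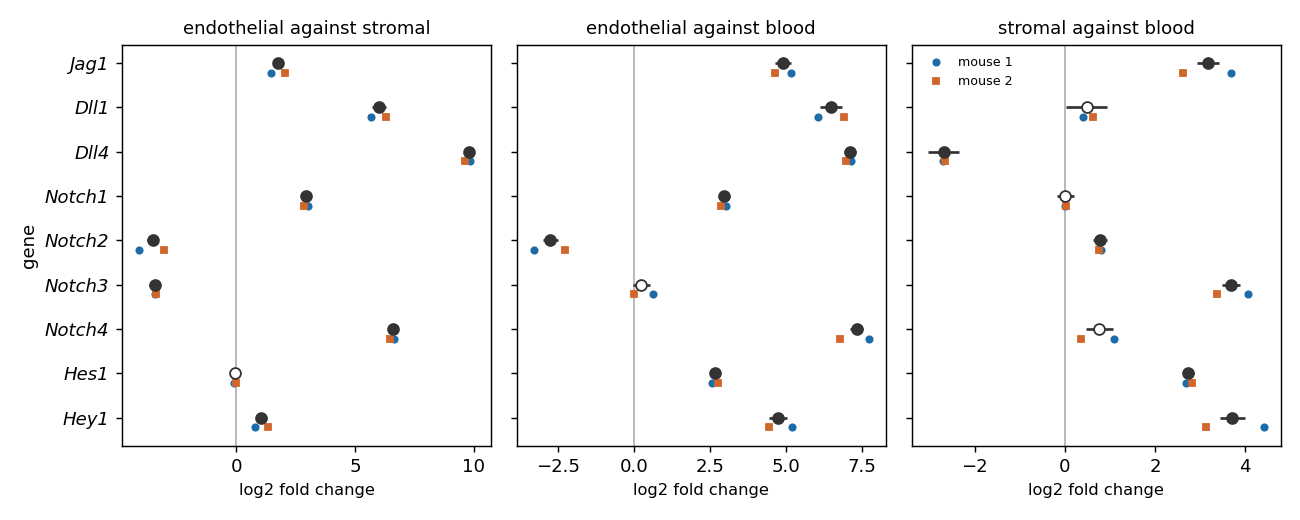
Log2 fold change (x axis) of each gene (y axis) between compartments, with a separate x scale in each panel. Large circles are edgeR estimates with SE bars, filled where the adjusted p was under 0.05 and open otherwise, and small symbols are the log2 ratios of scaled CPM within mouse 1 (circles) and mouse 2 (squares). Dll4 reaches 9.80 and Notch4 6.57 in the left panel, where Notch2 and Notch3 lie at -3.53 and -3.44.

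The wider pathway was described with 50 further genes, 47 of them tested between endothelial and stromal cells. There 17 were higher and 12 lower in endothelial cells (61.7% called, against 44.6% of all genes), with a median log2 fold change of 0.07. Jag2, the second Jagged ligand, measured 86.9 and 54.97 CPM in endothelial and 0.273 and 0.117 CPM in stromal cells, a log2 fold change of 8.54 (SE 0.37, edgeR adjusted p = 1.4e-05). Mfng, a fringe glycosyltransferase that alters ligand choice of the receptors, measured 43.45 and 52.4 CPM in endothelial cells against 0 and 0.136 in stromal cells, where it had 0 and 7 UMIs, and the fitted difference was 8.86 on the log2 scale (SE 0.45, edgeR adjusted p = 2.7e-05). Nrarp, a feedback inhibitor that is itself a target, measured 195 and 150.0 CPM against 0.740 and 0.467 (log2 fold change 8.14, SE 0.24), and Neurl3, of the neuralized ubiquitin ligases, 21.5 and 26.2 against 0.273 and 0.214 (6.53, SE 0.25).
In the other direction, the target Heyl measured 122 and 150 CPM in stromal cells and 4.60 and 8.73 in endothelial cells, a log2 fold change of -4.44 (SE 0.45, edgeR adjusted p = 0.00039). Dtx4, a deltex ubiquitin ligase, Aph1c, a gamma-secretase subunit, and Numbl, of the Numb family of inhibitors, were also lower in endothelial cells (-3.60, -3.56 and -2.25). Rbpj itself measured 197 and 217 CPM in stromal, 64.4 and 69.9 in endothelial and 49.2 and 43.3 in blood cells, and it was among the 12 that were lower in endothelial than stromal cells.
Against blood, 21 of 47 were higher and 11 lower in endothelial cells (68.1%, against 58.7% of all genes). Maml2, a Mastermind coactivator, measured 41.4 and 39.0 CPM there and 3.20 and 4.51 in blood. Jag2 and Nrarp were higher in endothelial than blood cells by 7.11 (SE 0.38) and 6.01 (SE 0.22) on the log2 scale, and Aph1c and Dtx4 were lower (-3.48 and -2.19). Some of these genes rested on few UMIs. Hey2 was 13.5-fold higher in endothelial than blood cells (exact interval 2.88 to 83.3) on 6 and 3 UMIs, Dtx1 was 5.56-fold higher in blood (1.49 to 46.8) on 75 and 2 UMIs, and the target Hes5 was at least 1.78-fold higher in blood, with 36 UMIs against 0 over both mice and a floor of 3 UMIs over the group.
Between stromal and blood cells, 23 were higher and 14 lower in stromal cells (78.7%, against 73.6% of all genes). Heyl, Numbl and Rbpj were higher by 3.57, 3.12 and 1.84 on the log2 scale and Hey2 was 21.5-fold higher (7.24 to 105) on 189 and 3 UMIs. Neurl3 and Mfng were lower in stromal cells (-7.17 and -6.32), as was Hes5 (-4.13), and Dtx1 was 110-fold higher in blood (29.4 to 925) on 75 and 2 UMIs.

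Within the endothelium, arterial-like cells (123 and 110) and sinusoidal-like cells (28 and 28) carried the ligands in opposite proportions. The arterial connexin Gja5 was at 114 and 161 CPM in the former and at 0 in the latter, and the sinusoidal scavenger receptor Stab2 at 3.34 and 0 against 939 and 781. Jag1 measured 180 and 177 CPM in arterial and 45.5 and 51.3 in sinusoidal cells (log2 fold change 1.76, SE 0.21, edgeR adjusted p = 0.0012). Dll4 measured 205 and 165 against 67.2 and 39.6 (1.67, SE 0.26, edgeR adjusted p = 0.0042). Dll1 was the reverse, at 50.8 and 38.9 CPM in arterial and 97.6 and 121 in sinusoidal cells (-1.40, SE 0.25, edgeR adjusted p = 0.0071). The arterial and sinusoidal CPM ranges of these 3 ligands did not overlap. After thinning, 34.1% and 26.4% of arterial and 35.7% and 3.57% of sinusoidal cells had a Dll4 UMI, so only mouse 2 had the larger arterial share. The thinned shares of Jag1 and Dll1 went the same way as their CPM in both mice. Without a filter on low counts, where 500 of 14896 genes (3.36%) were called in place of 21.3%, Jag1 was still called and Dll4 (1.75, edgeR adjusted p = 0.065) and Dll1 (-1.32, edgeR adjusted p = 0.082) were not.

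Among the receptors, Notch4 measured 174 and 133 CPM in arterial and 10.8 and 30.3 in sinusoidal cells (log2 fold change 2.79, SE 0.39, edgeR adjusted p = 0.0024), and it was not called without the filter (2.87, edgeR adjusted p = 0.063). Notch1 measured 370 and 272 against 256 and 135, which did not pass the test (0.60, SE 0.28, edgeR adjusted p = 0.18). With the mouse as a block it did (0.64, edgeR adjusted p = 0.025), as did Notch2 (-2.06, edgeR adjusted p = 0.013), which rested on 3 and 18 arterial and 12 and 10 sinusoidal UMIs. Notch3, at 11.4 and 4.61 against 8.67 and 32.65 CPM, was higher in arterial cells of mouse 1 and lower in those of mouse 2, and did not pass the test.

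The targets separated again. Hey1 measured 118 and 133 CPM in arterial cells but 2.17 and 11.7 in sinusoidal cells, where it had 1 and 5 UMIs, a difference of 4.08 on the log2 scale (SE 0.45, edgeR adjusted p = 0.00082). Hes1 measured 304 and 281 CPM against 254 and 303, overlapping ranges that did not pass the test (-0.05, SE 0.18, edgeR adjusted p = 0.89). In all, 4 of the 9 genes were higher and 1 lower in arterial cells, where 21.3% of 8450 genes passed, 9.35% higher and 11.9% lower. With the block 7 members and 25% of genes were called.

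**Figure D3:**
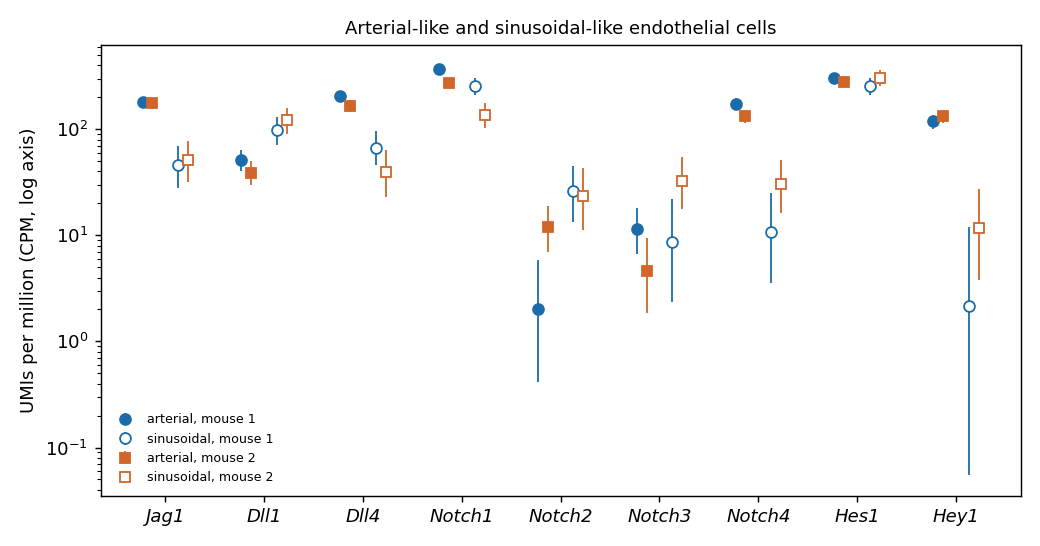
Level of each gene (x axis) in CPM on a log axis (y axis). Filled symbols are arterial-like and open symbols sinusoidal-like cells of mouse 1 (circles) and mouse 2 (squares), with exact 95% Poisson intervals that cover counting error only. Jag1, Dll4, Notch4 and Hey1 lie higher in arterial cells, Dll1 lies higher in sinusoidal cells, and Hes1 lies between 254 and 304 in all 4 sums.

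Of the wider list, 35 genes could be tested, 3 were higher in arterial cells and 6 lower (25.7%, near the 21.3% of all genes). Jag2 had 277 UMIs in arterial cells and 0 in sinusoidal cells over both mice, at least 27.3-fold higher in arterial cells with a floor of 3 UMIs over the group. Nrarp measured 241 and 164 CPM against 47.7 and 100.3 (log2 fold change 1.34, SE 0.35), and Furin, the protease that matures the receptors, 136 and 119 against 65.05 and 67.6 (0.83, SE 0.21). Lower in arterial cells were Psen2, a catalytic gamma-secretase subunit, at 30.1 and 27.0 against 113 and 114 CPM (-2.10, SE 0.22, edgeR adjusted p = 0.00064), Neurl3 (-1.46), Maml3 (-1.46) and the fringe enzyme Lfng (-1.34).

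Other cell types' RNA differed between these endothelial cells. The 8 myeloid markers summed to 6481 and 5833 CPM in arterial and 217 and 131 in sinusoidal cells, with Csf1r at 0 in both mice. Leaving out the 1 arterial cell per mouse that held over 1% of its UMIs in myeloid or erythroid markers brought the arterial sums to 301 and 161 CPM. Without those cells 5 members were still called, and 8 were still called against stromal and against blood cells. The 8 reticular markers summed to 1850 and 3435 CPM in sinusoidal and 465 and 602 in arterial cells, and the 8 preosteoblast markers to 4196 and 3865 against 191 and 717, none of the 16 being at 0 in either class. The 8 mural markers summed to 1364 and 1535 against 561 and 360, and Rgs5 and Higd1b were at 0 in sinusoidal cells of both mice. The part of these stromal and mural transcripts in the arterial to sinusoidal differences was not tested.

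In the stroma, reticular-like cells (1301 and 2551) were compared with preosteoblast-like cells (422 and 799), and the targets Hes1 and Hey1 changed in opposite directions. Hes1 measured 379 and 347 CPM in reticular and 139 and 185 in preosteoblast cells, a log2 fold change of 1.21 (SE 0.19, edgeR adjusted p = 0.004). Hey1 measured 28.8 and 19.7 CPM in reticular and 108.5 and 98.3 in preosteoblast cells, a log2 fold change of -2.05 (SE 0.19, edgeR adjusted p = 0.00037). Neither pair of ranges overlapped. After thinning, 5.32% (95% Wilson interval 4.23 to 6.68) and 3.35% (2.72 to 4.12) of reticular cells had a Hey1 UMI, against 17.1% (13.8 to 20.9) and 16.8% (14.4 to 19.6) of preosteoblast cells and 0.423% and 1.01% of blood cells. Free RNA held 38.45 and 33.2 CPM of Hey1, above the reticular and below the preosteoblast levels. For Hes1 it held 164 and 152 CPM, below the reticular levels. The preosteoblast levels of Hes1 were near those values, below in mouse 1 and above in mouse 2.

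Dll1 was lower in reticular than preosteoblast cells (log2 fold change -1.77, SE 0.50, edgeR adjusted p = 0.037), at 0.726 and 0.358 against 2.23 and 1.53 CPM, levels below that of free RNA. Jag1 measured 49.8 and 29.0 CPM against 49.3 and 45.3, Notch1 37.7 and 33.8 against 47.6 and 35.25, and Notch3 114 and 133 against 117 and 86.8, and none of these passed the test. Notch2 measured 139.5 and 122 CPM against 108.5 and 108.1 and passed only with the mouse as a block (0.32, SE 0.10 in both fits, edgeR adjusted p = 0.042 against 0.054). In all, 1 gene was higher and 2 were lower in reticular cells among 8 tested, where 26.8% of 12883 genes passed, 13.5% higher and 13.3% lower. With the block 4 members and 32.1% of genes were called.

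The level of Hes1 was not even within the reticular class. It measured 749 and 685 CPM in the cluster with heat shock genes among its leading genes (208 and 712 cells), called the heat shock cluster. The level was 333.5 and 198 in the cluster led by Tnfsf11 and Ccl2, and 267 and 323 in the cluster with Bmp4 and Ebf3 among its leading genes. A small cluster led by Cxcl9 (45 and 44 cells) held 49.4 and 55.7. A list of 10 immediate early and heat shock genes summed to 16784 and 16751 CPM, 11669 and 6144, 2474 and 2909, and 652 and 390 in the same order, and to 4143 and 4679 in preosteoblast cells. The clusters highest and lowest in Hes1 were thus also the highest and the lowest in this list. The clusters between them did not keep the same order in mouse 2. The low end, the Cxcl9 cluster, rested on 10 and 10 Hes1 UMIs in 5 and 3 cells. The part of the list in the Hes1 level was not tested.
Without the heat shock cluster the Hes1 log2 fold change between reticular and preosteoblast cells was 0.76 (edgeR adjusted p = 0.047), and with the Bmp4 cluster as the only reticular cells it was 0.72 (edgeR adjusted p = 0.034). The Hey1 fold change was -2.07 and -2.91 in the same fits, with edgeR adjusted p of 0.00017 and 0.00048.

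**Figure D4:**
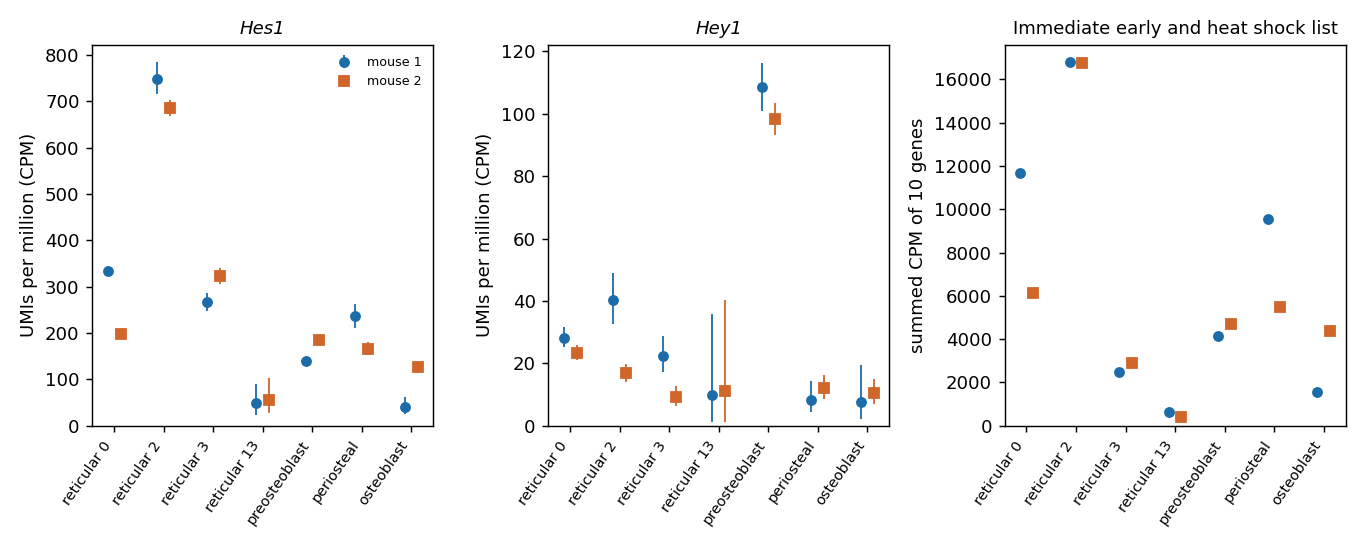
Hes1 and Hey1 in CPM and the summed CPM of 10 immediate early and heat shock genes (y axes, linear from 0) in 4 reticular clusters, numbered by the clustering, and in preosteoblast, periosteal and osteoblast cells (x axis). Circles are mouse 1 and squares mouse 2, with exact 95% Poisson intervals that cover counting error only. Reticular cluster 2, with heat shock genes among its leading genes, is highest in Hes1 and in the list, while Hey1 is highest in preosteoblast cells.

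Periosteal-like cells (80 and 240) held Jag1 at 76.5 and 58.4 CPM, above both reticular values, yet the difference passed only with the mouse as a block (log2 fold change of reticular against periosteal cells -0.82, SE 0.26, edgeR adjusted p = 0.057, and -0.88, edgeR adjusted p = 0.0058, with the block). Hes1 measured 236 and 166 CPM and Hey1 8.27 and 12.0 CPM in periosteal cells, and both were higher in reticular cells (0.81, SE 0.20, edgeR adjusted p = 0.025, and 1.09, SE 0.26, edgeR adjusted p = 0.022). These were the only 2 of 8 tested genes that passed, where 22.7% of genes did, 9.92% higher and 12.8% lower. With the block 3 members and 25.4% of genes were called. The Hes1 call was lost without the heat shock cluster (0.36, edgeR adjusted p = 0.32), and with the Bmp4 cluster alone the Hes1 and Hey1 differences were 0.30 and 0.22 (edgeR adjusted p = 0.31 and 0.72). Notch4 had 0 UMIs in periosteal cells of both mice against 19 and 43 in reticular cells, and it was not called.

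Osteoblast-like cells, which were few (14 and 62), had low levels of every member but Notch2 and Hes1. Notch2 measured 34.45 and 39.1 CPM and Hes1 40.2 and 126, while Jag1 stood at 5.74 and 0.359 and Notch3 at 1.91 and 3.59. The Notch2 and Hes1 values were below those of free RNA (71.65 and 78.1 CPM of Notch2, 164 and 152 of Hes1). The osteoblast-like cells entered the stromal sums. They were not tested as a separate class because of the number of cells in mouse 1.

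Among the wider list, 6 of 43 tested genes were higher and 7 lower in reticular than preosteoblast cells (30.2%, near the 26.8% of all genes). Rbpj, the DNA-binding partner of the receptors, measured 258 and 300 CPM in reticular and 89.7 and 99.6 in preosteoblast cells (log2 fold change 1.61, SE 0.15, edgeR adjusted p = 4e-04). Heyl measured 141 and 187 CPM against 93.6 and 94.9 (0.85, SE 0.23), and Dtx4 and the gamma-secretase subunit Ncstn were also higher (0.96 and 0.71). Hey2 measured 1.75 and 1.73 CPM against 6.68 and 3.89 (-1.51, SE 0.39, edgeR adjusted p = 0.027), and Maml3, the ubiquitin ligase subunit Fbxw7 and the coregulator Snw1 were lower as well (-1.09, -0.78 and -0.51).
Against periosteal cells, 5 of 43 were higher in reticular cells, with Lfng at 42.6 and 33.0 against 19.3 and 9.79 CPM (1.46, SE 0.35), Rbpj (1.30), Ncstn (0.64) and Numb (0.48), and 6 were lower, Neurl3 (-3.61, on 3 to 5 UMIs per sum), Neurl1b (-2.43) and the ligand-activating Mib1 (-0.72) among them. That was 25.6% of those tested, near the 22.7% of all genes.

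Among blood cells the receptors Notch1 and Notch2 differed between the lineages. Notch2 measured 85.2 and 83.2 CPM in myeloid cells (365 and 328) and 39.4 and 31.7 in lymphoid cells (234 and 236), and the log2 fold change of lymphoid against myeloid cells came to -1.77 (SE 0.19, edgeR adjusted p = 0.00052). Notch1 measured 46.0 and 39.2 against 29.8 and 28.75 CPM (-1.06, SE 0.29, edgeR adjusted p = 0.031). Free RNA held 71.65 and 78.1 CPM of Notch2 and 40 and 27.2 CPM of Notch1, so lymphoid cells stood below it for Notch2. After thinning, 7.26% and 8.12% of lymphoid and 23.4% and 24.4% of myeloid cells had a Notch2 UMI, against 1.32% and 3.62% of endothelial cells. Notch1 and Notch2 were the 2 of 6 tested genes that passed, where 30.5% of 11513 genes did, 11.3% higher and 19.2% lower in lymphoid cells.
Hes1 measured 128 and 65.8 CPM in lymphoid and 28.9 and 29.8 in myeloid cells, without overlap, and did not pass the test (1.19, SE 0.49, edgeR adjusted p = 0.11). These values lay below the 164 and 152 CPM of Hes1 in free RNA. The lymphoid class of mouse 1 held 4935 CPM of the myeloid markers against 158 in mouse 2, and its Jag1 level was 9.60 against 0.974 CPM. With library totals in place of TMM factors the median log2 fold change of all genes moved from -0.04 to 0.48, the genes called higher and lower in lymphoid cells numbered 3817 and 1416 instead of 1298 and 2213, Notch1 was no longer called (-0.54, edgeR adjusted p = 0.21) and Hes1 was (1.72, edgeR adjusted p = 0.035).

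Myeloid clusters differed among themselves. The cluster led by Retnlg and Mmp8 held Notch2 at 144 and 135 CPM and Notch1 at 91.85 and 65.1, whereas the cluster led by Elane and Ms4a3 held 28.6 and 27.35 and 17.6 and 24.4. A cluster of 21 and 21 cells led by C1qa held Notch2 at 149 and 102 CPM and Hes1 at 229 and 121. Erythroid cells were low, with Notch2 at 12.0 and 18.3 CPM and Hes1 at 3.01 and 17.0.
Of the wider list, 5 of 44 tested genes were higher and 15 lower in lymphoid than myeloid cells (45.5%, against 30.5% of all genes). Dtx1, a target of Notch in lymphocytes, measured 20.2 and 14.1 CPM in lymphoid against 0 and 0.630 in myeloid cells (5.25, SE 0.87, edgeR adjusted p = 0.0059), Hes5 measured 8.16 and 5.85 against 0.374 and 0.630 (3.24, SE 0.59), and Cir1 and Hdac1 were higher by 0.65 and 0.60. Lower in lymphoid cells were Aph1c (-4.14), Aph1b (-2.72), Furin (-2.03) and Dtx4.

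Reticular cells were divided by tdTomato level into 512 and 986 positive and 789 and 1565 negative cells. The cut was 7.73 and 14.6 tdTomato UMIs per 10000 UMIs in mouse 1 and mouse 2. A cut of 3 per 10000 gave 558 and 1332 positive cells, so the negative cells here included some with tdTomato. The fit with the mouse as a block was run at the first cut only. None of 7 tested members passed in edgeR, where 0% of 12213 genes did. This fit left out the pairing by mouse, although same-mouse deviations correlated at 0.514, and it called no gene at all. It therefore cannot show whether the members differed. An unadjusted p under 0.05 was reached by 533 genes, and DESeq2 called 11. With the mouse as a block 689 genes (5.64%) were called, and 2 of them were members. Jag1 was lower in tdTomato-positive cells, on 291 and 290 UMIs against 532 and 599 in negative cells (log2 fold change -0.35, SE 0.08, edgeR adjusted p = 0.0023), as was Notch1, on 228 and 354 UMIs against 396 and 683 (-0.27, SE 0.08, edgeR adjusted p = 0.034). Both were lower in 2 of 2 mice. The groups drew on the clusters in different proportions. The cluster with Bmp4 among its leading genes, which held Jag1 at 67.7 and 49.1 CPM, supplied 15% and 9.53% of the positive and 26.6% and 21.3% of the negative cells. Within that cluster Jag1 measured 60.3 and 36.0 CPM in positive and 71.0 and 54.5 in negative cells, and Notch1 33.6 and 36.9 against 39.6 and 46.1. In the other 2 large clusters both genes were also lower in positive cells of both mice, with Jag1 at 37.5 and 19.2 against 48.55 and 23.1 CPM in the cluster led by Tnfsf11 and at 57.3 and 31.1 against 60.3 and 39.1 in the heat shock cluster. These within-cluster values carry no test. Hes1 and Hey1 differed by -0.07 (SE 0.05) and -0.13 (SE 0.11) in that fit and did not pass.

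Over the 9 classes, neighbouring levels often could not be told apart. For Jag1 the arterial level was highest, at a mean of 178 CPM (SD over 2 mice 2.33), and the periosteal level followed at 67.5 (12.8), whereas sinusoidal, preosteoblast and reticular ranges overlapped in turn. For Notch2 the order ran from reticular (131, SD 12.2) to periosteal, preosteoblast and myeloid cells with no overlap between the ranges of neighbours. The Notch2 difference between reticular and periosteal cells nevertheless did not pass the test (log2 fold change 0.12, SE 0.11, edgeR adjusted p = 0.46). Reticular, preosteoblast and periosteal ranges of Notch3 overlapped in turn, and arterial and sinusoidal ranges of Hes1 did.

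The genes whose levels ran closest to each member over 16 sums (8 classes in 2 mice, log2 of CPM + 1, 9664 genes compared) were found by Pearson's r. They were Ccm2l (0.993) and Syt15 (0.990) for Dll4, Robo4 (0.986) and Hid1 (0.983) for Dll1, Nckap5l (0.977) and Tshz3 (0.971) for Jag1, Pdcd6ip (0.981) and Sptlc2 (0.971) for Notch1, Runx3 (0.959) and Emb (0.939) for Notch2, Colec12 (0.976) and Efemp2 (0.976) for Notch3, Edn1 (0.984) and Rbp7 (0.984) for Notch4, Hivep2 (0.984) and Zbtb4 (0.977) for Hes1 and Unc5b (0.934) and Fam13c (0.926) for Hey1. The sums share 2 libraries and come from classes of unequal depth, so these values describe likeness of level over the classes and carry no test.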

How the data were processed

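The deposited matrices hold counts: whole-number UMIs per gene and barcode that the authors made with Cell Ranger (3.0.0 in the file header) from 10x v3 libraries against mm10 with reporter sequences added, unfiltered. The features and barcodes were read as names. The members, the wider list of 50 genes and the marker lists were chosen with earlier results of these data known.

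Barcodes were kept from 1000 detected genes upward and up to 15% mitochondrial UMIs (total UMIs 54940400 and 88790688 per library). Cells were clustered with scanpy 1.11.5 and leidenalg 0.10.2 (2000 variable genes without Notch list genes, mitochondrial genes and reporters, log UMIs regressed out, 30 components, 15 neighbours, resolution 0.5). A class name needed 3 of its markers raised at least 1.5-fold. Of 18 clusters, 2 (167 cells) stayed unnamed and entered no comparison. Scrublet called 1 and 3 cells (0.0364% and 0.0655%), too few to use, so no cells were removed as doublets, and the 60 and 168 cells of highest score were left out as an alternative. A reticular cell was tdTomato-positive above the 99th percentile of tdTomato UMIs per 10000 UMIs in blood cells of its mouse.

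UMIs were summed per class and mouse and tested with edgeR 4.0.16 (R 4.3.3, glmQLFit, TMM, filterByExpr, Benjamini-Hochberg over all genes tested, call at 0.05). SE is the log2 fold change divided by the root of the F statistic. CPM is per 1000000 UMIs of the class, shares are of cells thinned to 2000 UMIs, and all intervals cover counting error only. Same-numbered sums come from the same animal, and deviations of same-mouse sums from their group means correlated at 0.0609 to 0.514 over genes, so fits with the mouse as a block are given where they change a call. The alternatives were DESeq2 1.42.0 (test and size factors), library totals, no filter on low counts, the block, looser (500 genes, 20%) and stricter (2000 genes, 10%) cell filters, resolution 1.0, doublets removed, a tdTomato cut of 3 per 10000, and each mouse left out. The named genes were all members, up to 4 called genes of the wider list per direction and comparison, and 2 genes of closest pattern per member. A gene that this rule named is not reported here. Clusters and marker genes named beside them were chosen after their values were seen. The scripts were tested on simulated counts.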

Additional observations from a re-analysis of the deposited data

Results flagged for a closer look

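Cells of 1 unnamed cluster (66 and 85 cells), led by Acta2, Tpm2 and Spp1 with several cell cycle genes, entered no comparison. Notch3 measured 151 and 114 CPM there (mean 132, SD 25.95, n = 2 mice; 250 and 219 UMIs) against 66.0 and 71.9 CPM in free RNA. Hey1 measured 86.8 and 83.8 CPM (mean 85.3, SD 2.12; 144 and 161 UMIs) against 38.45 and 33.2 CPM in free RNA. The cluster raised 6 of the 8 preosteoblast markers, and preosteoblast-like cells held Notch3 at 117 and 86.8 CPM and Hey1 at 108.5 and 98.3. For both genes the lower bound of the exact 95% Poisson interval in the cluster lay above the upper bound in free RNA in both mice, which is why they are listed.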

How the results depend on the processing

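The members' calls and the members' highest compartments were recounted under each alternative, and 80 of 85 counts stayed stable. The 85 include the tdTomato comparison, whose main count was 0, and a recount of 0 there was taken as stable although that fit called no gene. Stable meant within 1.5 times the main value for calls and all 9 members for compartments. A count of calls could stay while its members changed. With the Bmp4 cluster as the only reticular cells, the Hes1 and Hey1 calls against periosteal cells were both lost. All alternatives kept 8 calls for endothelial against stromal and against blood cells. Without a filter on low counts 5 instead of 2 members were called between reticular and periosteal cells, with 20.8% instead of 22.7% of genes. Between arterial and sinusoidal cells 2 instead of 5 were called, with 3.36% instead of 21.3% of all genes. Dll1, Dll4 and Notch4 missed the threshold there (edgeR adjusted p of 0.082, 0.065 and 0.063). Without the heat shock cluster of reticular cells, an alternative chosen after seeing the data, 1 member was called between reticular and periosteal cells. With the replicate block 2 members instead of 0 were called between tdTomato-positive and tdTomato-negative cells, and the counts were 4 instead of 3 (reticular against preosteoblast), 3 instead of 2 (against periosteal) and 7 instead of 5 (arterial against sinusoidal), and the block changed no other member's call. With the looser cell filter 8 of 9 members kept their highest compartment, the exception being Hes1 (282.8 CPM in endothelial and 287 in stromal cells).

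No called member turned direction. Uncalled differences that crossed 0, each against its main sign, were those of Hes1 in endothelial against stromal cells (0.01 with library totals, 0.04 with the stricter cell filter), Notch3 in endothelial against blood cells (-0.34 without doublets, -0.35 without endothelial cells rich in blood markers), Notch1 in stromal against blood cells (-0.07 with DESeq2 size factors and with the DESeq2 test), Jag1 in the Bmp4 cluster against preosteoblast cells (0.15), Dll1 and Notch1 in reticular against periosteal cells (-0.23 and -0.11 with the stricter filter), Notch2 in the Bmp4 cluster against periosteal cells (-0.09), Hes1 in arterial against sinusoidal cells (0.08 with library totals, 0.04 without a count filter, 0.05 without doublets, 0.01 with the stricter filter), Jag1 and Notch3 in lymphoid against myeloid cells (0.21 with library totals, 0.03 with the stricter filter), and Hes1 and Notch4 in tdTomato-positive cells (0.0023 with the stricter filter, -0.03 at 3 per 10000). The cause was not tested. Leaving out either mouse left no residual spread, so it gave values and no counts of calls, and none of the called members changed sign.

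With 28 sinusoidal cells per mouse and 4 to 8 Dll4 UMIs in stromal cells, small differences in these sums were not detectable at this depth.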
